A study of Mus musculus with 41 samples.

Results

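The clustered protocadherin genes of the mouse were described through every region called inside one window of build mm9, chr18:37085000-38010000, which is 925 kb long and holds the alpha, beta and gamma clusters. A region was a member when it lay wholly inside the window, whatever its target, so no measured value chose the members. There are 211 members among the 488881 regions of 27 deposited lists, against 543 regions in the 1 Mb on the low-coordinate side and 571 in the 1 Mb on the high-coordinate side. In 23 of the 27 lists at least 1 member was found, and 4 lists had none. A further 4 H3K4me1 regions, 1 in each H3K4me1 list, cross the high-coordinate border near 38010000. They are not members, but the bases they cover inside the window are part of the covered lengths given for that mark.

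The series mapped the binding of LSD1, a histone demethylase with a neuronal splice form called LSD1n, and asked what deleting LSD1n does to histone marks. Cortical neurons of the mouse, cultured for 10 days, were bathed in 55 mM KCl, which depolarizes them, for 0 h or 1 h and assayed by chromatin immunoprecipitation followed by sequencing. Neurons labelled LSD1n WT and LSD1n KO were assayed for H3K36me3, H3K4me1, H4K20me1, RNA polymerase II (Pol II) and LSD1, and LSD1n WT neurons for H3K4me2. LSD1 was also mapped in wild-type neurons at 0 h and 1 h, and Flag-tagged LSD1n or LSD1c, the canonical isoform, in neurons labelled R26/LSD1n or R26/LSD1c at both times with an antibody to the tag. The promoter of these transgenes is not given in the sources used here, and no time is given for the LSD1 library of LSD1n KO neurons. Inside all 4 Pol II lists the genotype is written the other way round from the sample labels, so those libraries are named here by label and no genotype direction is drawn from them.

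Clustered protocadherins are cell-surface adhesion proteins, and each neuron expresses its own small choice of them, which lets its branches tell self from non-self. In the alpha and gamma clusters, each variable exon has its own promoter and is spliced to constant exons at the end of the cluster, while beta genes are single exons. H3K36me3 is laid down over transcribed gene bodies, H3K4me1 marks enhancers, H3K4me2 marks promoters and enhancers, and H4K20me1 is found over transcribed bodies. RefSeq, on assembly GRCm38.p6, lists 14 alpha symbols from Pcdha1 to Pcdhac2, then 22 beta symbols from Pcdhb1 to Pcdhb22, then 22 gamma symbols from Pcdhga1 to Pcdhgc5. That order runs from the neighbour Zmat2 to the neighbour Diaph1, the gene of a formin that nucleates actin. Slc25a2, a mitochondrial carrier gene, and Taf7, a gene of the general transcription factor TFIID, lie between the first alpha and the last gamma symbol. An mm9 gene annotation was not used here, so regions are given by position and none is assigned to a gene. The genes of the clusters resemble each other in sequence, and how reads that fit several copies were treated is not given in the sources used here, so an empty stretch means only that no region was called there.

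Depth ran from 6990017 to 34859557 tags per library, and the share of tags inside regions from 0.0806% to 19.6%. With a single library in every group but 1, differences between groups have no replicate check and no test. Bracketed ranges are 95% exact intervals for counting error alone. H4K20me1 in LSD1n WT at 1 h has 2 libraries. Nothing says that these came from separate cultures, and 1 of them has 28453 regions in all and the other 2844. Title prefixes of the samples differ between some groups, and those of H3K36me3 and H4K20me1 are taken up beside the results. The LSD1 libraries of wild-type neurons have another prefix than those of LSD1n WT and LSD1n KO. Flag-LSD1n likewise has another prefix than Flag-LSD1c.

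**Figure D1:**
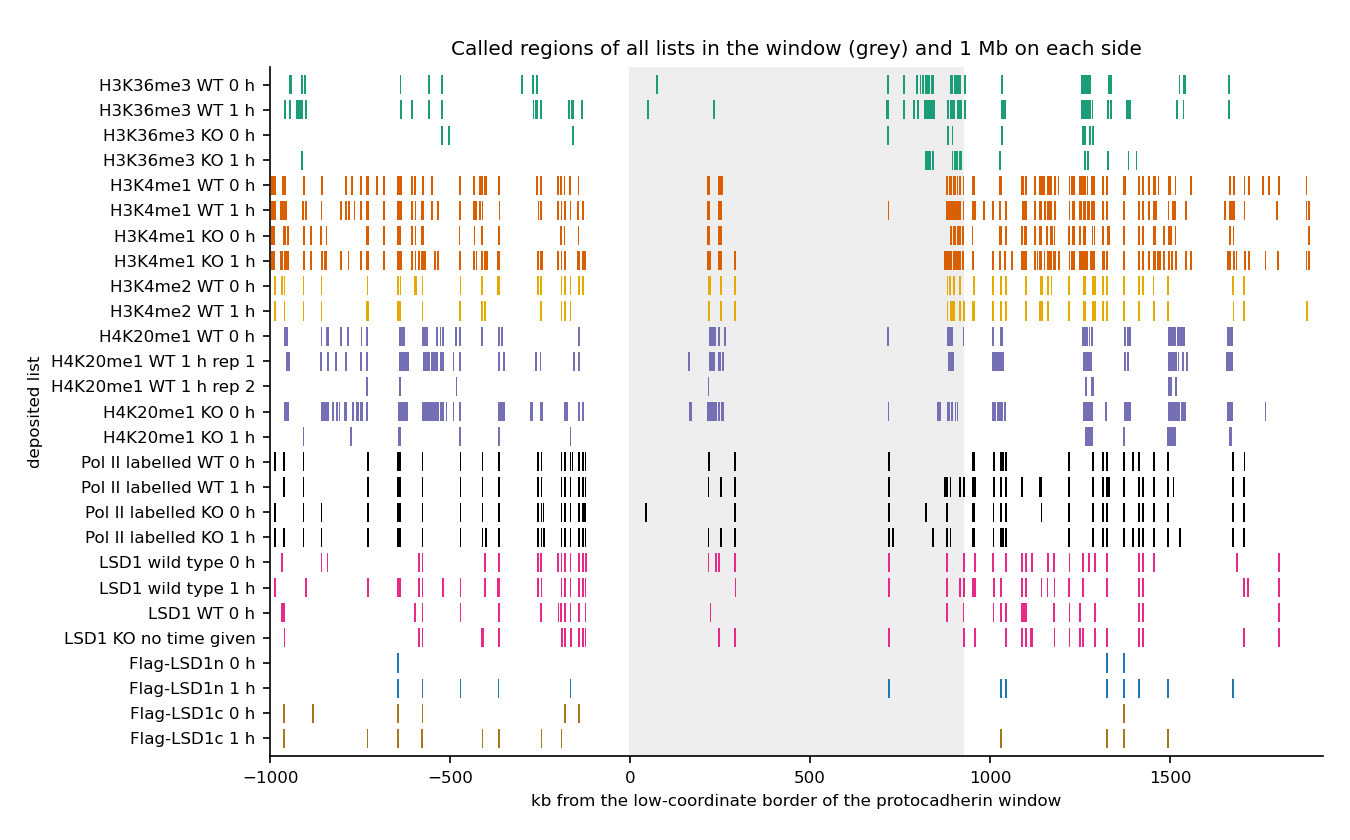
Called regions of the 27 lists against distance in kb from the low-coordinate border of the protocadherin window (grey), with 1 Mb on each side. Each row is 1 list and each bar 1 region, with short regions drawn wider than their true size so that they can be seen; the window's middle is empty in every row, while both flanks hold regions of every target.

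The members lay in clumps, with long stretches between them where nothing was called. No region of any of the 27 lists was called in chr18:37378070-37798172, a stretch of 420.1 kb that makes up 45.4% of the window. The longest stretch without a region in the flanks was 94.7 kb, and the median over the genome was 3.31 kb. The stretch of 420.1 kb is the longest of the window and was picked after the positions were seen. Stretches at least as long as it numbered 516 of 135017 in the genome (0.382%) and 11 of 4463 on chromosome 18. These are shares of the number of stretches, most of them short, and not of the genome's length, of which long stretches take a larger part. Regions of any list covered 10.7% of the window, 20.95% of the low-coordinate flank and 24.7% of the high-coordinate flank. When the window was divided into 37 bins of 25 kb, 20 bins held no region.

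Members less than 25 kb apart formed 7 islands, and borders drawn from them were chosen after their positions were seen. The low-coordinate end, 215.4 kb up to the third island, held 6 regions in 2 islands: 2 of H3K36me3, 3 of H4K20me1 and 1 of Pol II in the library labelled KO at 0 h. The third island, at 37300360-37348986, held 58 regions from 17 lists, led by 23 of H4K20me1 and 19 of H3K4me1. The fourth, at 37376355-37378069, was a single compact place of 1.71 kb with 11 regions from 10 lists, and it was the last place before the long empty stretch. On the other side of that stretch, the fifth island at 37798173-37815455 held 17 regions from 14 lists, among them 5 of Pol II and none of H3K4me2. The sixth and seventh islands, at 37846610-37847265 and 37874321-38005801, held 2 and 117 regions, so that over 131.5 kb the seventh gathered more regions than all the other islands together.

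Within these islands the regions fell into 33 loci when those within 1 kb were joined. Of these, 22 loci had 1 target only: 14 had H3K36me3, 5 H4K20me1, 2 Pol II and 1 H3K4me1. The 3 loci with the most targets had 6 of the 8 each. They were 37798173-37804288 with 16 regions from 14 lists, 37960566-37990163 with 63 regions from 19 lists, and 37993296-38005801 with 25 regions from 12 lists. The targets at the first of them were H3K36me3, H3K4me1, H4K20me1, Pol II, LSD1 and Flag-LSD1n, while the others had H3K4me2 in place of Flag-LSD1n.

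**Figure D2:**
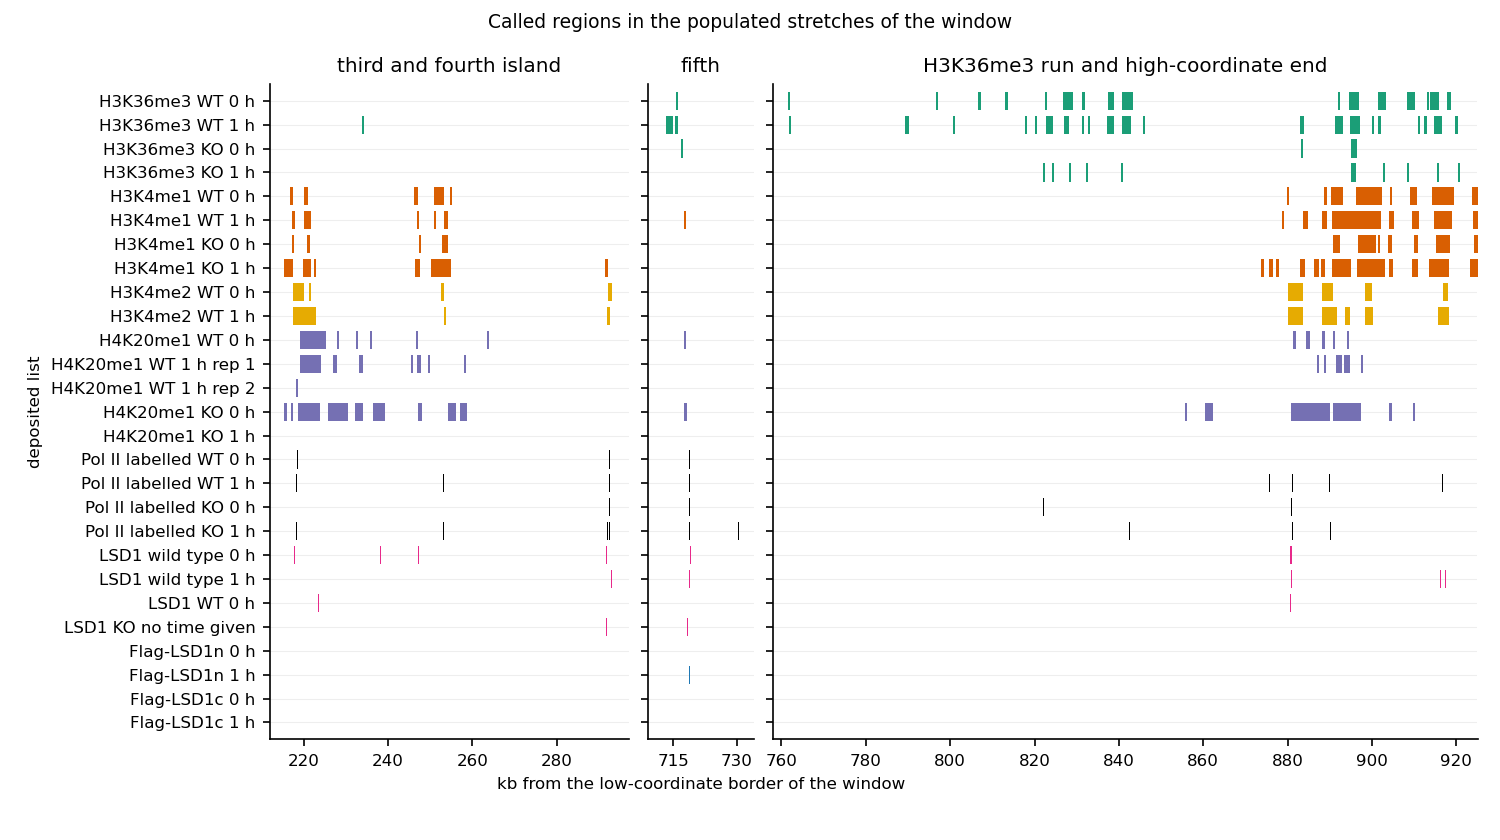
Called regions in the 3 populated stretches of the window, by list (rows) and distance in kb from the window's low-coordinate border; short regions are drawn wider than their true size. H3K36me3 forms a run of its own that starts 761.6 kb from the border, before the stretch where all marks lie together; the last H3K4me1 bar in each of its rows is the region that crosses the window's border.

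Each of the 23 lists of targets other than H3K36me3 had fewer regions per Mb in the window than in the flanks together and than in either flank. In 19 of the 23 the counting interval of the ratio lay wholly below 1. H3K4me1 had 12, 13, 10 and 17 members in WT at 0 h, WT at 1 h, KO at 0 h and KO at 1 h, or 0.28 to 0.33 times the flank density in the 4 lists. In WT at 0 h that was 13.0 regions per Mb against 46 in the flanks, a ratio of 0.282 (0.141 to 0.517). H3K4me2 had 8 members at 0 h and 8 at 1 h, 0.376 (0.153 to 0.805) and 0.412 (0.167 to 0.888) times the flank density. The flanks are themselves rich in regions, and the shortfall against them was not one against the genome in every list. At 0 h in WT, H3K4me1 in the window stood at 0.921 times the mean density of its whole list and its flanks at 3.27 times. H3K4me2 stood at 1.38 times its list's mean in the window and 3.67 times in the flanks.

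H4K20me1 had 12 members in WT at 0 h, 18 in KO at 0 h, 13 and 1 in the WT libraries at 1 h, and 0 in KO at 1 h. The first 2 lists had 0.499 (0.242 to 0.947) and 0.533 (0.299 to 0.903) times the flank density. In KO at 0 h the shortfall was against the low-coordinate flank, which held 53 regions, while the high-coordinate flank held 20, or 20 per Mb against 19.5 in the window. Against the mean of the whole list the window was denser, at 1.35 times in WT at 0 h, 1.42 times in KO at 0 h and 1.30 times in the first WT library at 1 h, and it was at 1.00 times in the second.

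Pol II had 3 members in the library labelled WT at 0 h, 8 in that labelled WT at 1 h, 5 in that labelled KO at 0 h and 9 in that labelled KO at 1 h. The ratio to the flanks ran from 0.175 (0.0346 to 0.554) in the first to 0.475 (0.203 to 0.991) in the last. Against the whole list the window was denser at 1 h, at 1.60 times the mean under the WT label and 1.59 times under the KO label, and stood at 0.656 and 1.00 times at 0 h. The LSD1 antibody gave 6 members in wild-type neurons at 0 h, 5 at 1 h, 2 in LSD1n WT and 4 in LSD1n KO, or 0.14 to 0.309 times the flank density. Flag-LSD1n had 1 member at 1 h and none at 0 h, and Flag-LSD1c had none at either time, against 12, 3, 7 and 13 flank regions in Flag-LSD1n at 1 h and 0 h and Flag-LSD1c at 0 h and 1 h. These 4 lists are short, and a count of 0 does not show that regions are absent. For Flag-LSD1c at 1 h the exact interval reaches 0.709 times the flank density.

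H3K36me3, the mark of transcribed bodies, differed from the other targets in this respect. It had 18 members in WT at 0 h, 25 in WT at 1 h, 3 in KO at 0 h and 10 in KO at 1 h, and in 3 of the 4 lists the window was denser than both flanks. The ratios to the flanks were 1.56 (0.80 to 2.97), 1.29 (0.752 to 2.16), 0.721 (0.126 to 2.89) and 2.70 (0.96 to 7.88), so in no list did the interval exclude equal density. Against its whole list the window was 4.46, 4.09, 2.33 and 9.02 times denser in the same order. Of 2689 tiles of the window's length across the genome, 6.1%, 6.81%, 18.1% and 1.64% held at least as many H3K36me3 regions.

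**Figure D3:**
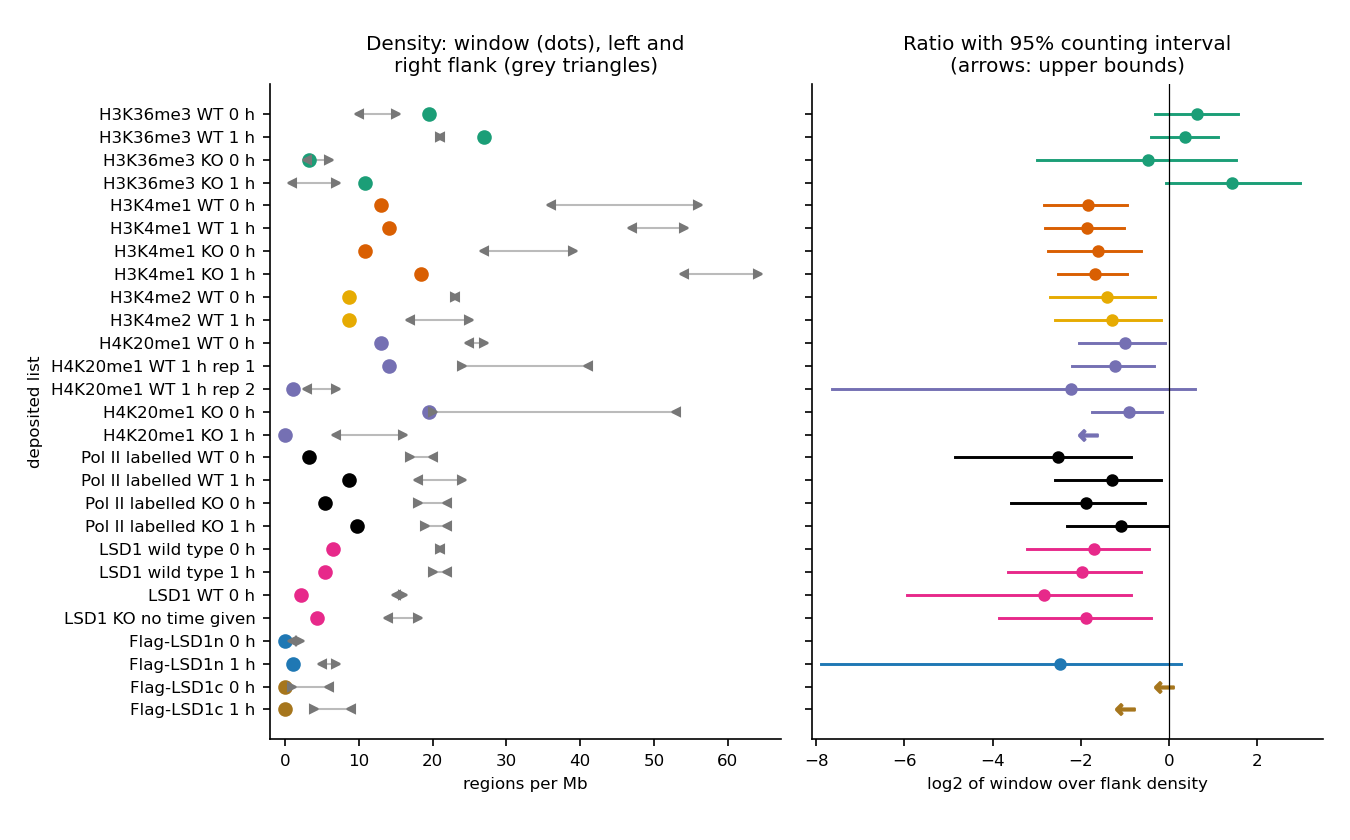
Regions per Mb of each list in the window (dots) and in the low- and high-coordinate flanks (grey triangles pointing left and right), and the log2 ratio of window over flank density with its 95% counting interval. Arrows, called upper bounds in the panel title, mark lists with no region in the window set at the floor of 3 regions. They are not limits of the counting interval. The dots lie left of the triangles in the 23 lists of targets other than H3K36me3, and right of both in 3 of the 4 H3K36me3 lists.

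Of the 56 H3K36me3 members of the 4 lists, 26 lay in a run where almost nothing else was called, and 23 lay beside it among all the other marks. Between 37846610 and 37931196, over 84.6 kb, the run had 9 regions in WT at 0 h, 12 in WT at 1 h, 0 in KO at 0 h and 5 in KO at 1 h. The same stretch held 2 Pol II sites, 1 in each library labelled KO, and no region of H3K4me1, H3K4me2, H4K20me1, LSD1 or either Flag-tagged form. The borders of the run were drawn after the positions were seen, which in part sets this absence and the shares that follow. The run thus held 50%, 48% and 50% of the H3K36me3 members of WT at 0 h, WT at 1 h and KO at 1 h. In WT the mark covered 9.74 kb of it at 0 h (11.5%) and 11.55 kb at 1 h (13.7%).

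Next to it, the last 78.8 kb of the window, 37931197-38010000, held all marks side by side: 23 regions of H3K36me3, 31 of H3K4me1, 9 of H3K4me2, 16 of H4K20me1, 7 of Pol II and 5 of LSD1. Over the whole window, H3K36me3 and H3K4me1 members overlapped by at least 1 bp more often than in their lists. In WT at 0 h, 6 of the 18 H3K36me3 members (33.3%, 13.3 to 59) were overlapped by H3K4me1, against 11.5 percent of the whole H3K36me3 list. Seen from H3K4me1, 4 of 12 members (33.3%, 9.92 to 65.1) were overlapped by H3K36me3, against 3.53 percent of the whole list. At 1 h the counts were 7 of 25 (28%, list 12.5 percent) and 4 of 13 (30.8%, list 4.7 percent), and the interval of the first, 12.1 to 49.4, reaches the list's share. With at least 50% of the H3K4me1 region covered, 1 of 12 (8.33%) and 1 of 13 (7.69%) were left, whereas 5 of 18 (27.8%) and 5 of 25 (20%) H3K36me3 members were covered that far by H3K4me1. H3K4me2 members met H3K36me3 in 1 of 8 cases at 0 h (list 4.55 percent) and 5 of 8 at 1 h (62.5%, 24.5 to 91.5, list 5.24 percent), although at 1 h none was covered by it over at least 50% of its length. H3K36me3 and H4K20me1 overlapped in 1 of 18 H3K36me3 members in WT at 0 h, where 20.4 percent of the list did, and in 3 of 25 at 1 h with the first WT library, where 24.8 percent did. The members of 1 stretch are neighbours and are not independent of each other.

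The widest H3K36me3 regions in WT at 0 h were 37925615-37928315, of 2701 bp, and 37911808-37914030, of 2223 bp, both in the run, and 37979469-37981947, of 2479 bp, in the high-coordinate end. Only 2.45% of the regions of that list were as wide as the first. It was covered over 83.1% of its length in WT at 1 h, 0% in KO at 0 h and 13.2% in KO at 1 h. The region of 2479 bp was covered over 90.7% in WT at 1 h, 55.95% in KO at 0 h and 45.6% in KO at 1 h, so the mark was called at this place in all 4 lists. The widest H3K4me1 regions of WT at 0 h were all in the high-coordinate end: 37981162-37987472 of 6311 bp, 37999098-38004544 of 5447 bp and 37975218-37978194 of 2977 bp. Between 52.8% and 95.9% of their lengths was covered by H3K4me1 in each of the other lists, with the lowest shares of all 3 in KO at 0 h.

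By genotype, H3K36me3 had fewer regions in both LSD1n KO lists. At 0 h there were 3 members in KO and 18 in WT, a log2 ratio of -2.58 (-4.99 to -0.81), and the covered length was 2.52 kb and 20.95 kb. The flanks moved the same way, with 9 and 25 regions and a log2 ratio of -1.47 (-2.76 to -0.33), and so did the whole lists, with 3685 and 11530 regions and -1.65. The interval of the window's ratio holds both values, as it does at 1 h. At 1 h the window had 10 members in KO and 25 in WT, -1.32 (-2.54 to -0.21), a smaller deficit than in the flanks, with 8 and 42 regions and -2.39 (-3.70 to -1.28), and in the whole lists, at -2.46. The 4 libraries share a title prefix and had 13147855 (KO, 0 h), 19055899 (WT, 0 h), 12572399 (KO, 1 h) and 16785574 (WT, 1 h) tags; the part of depth in the deficit was not tested.

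The share of H3K36me3 WT members with a counterpart in KO was near that of the list at 0 h and above it at 1 h. At 0 h, 1 of the 18 WT members (5.56%, 0.141 to 27.3) was overlapped by a KO region, where 12 percent of the whole WT list was, and 1 of the 3 KO members by a WT region (list 38.6 percent). At 1 h, 6 of 25 (24%, 9.36 to 45.1) were, where 8.1 percent of the list was, and from the other side 6 of 10 KO members (60%, 26.2 to 87.8) lay on a WT region, where 47.1 percent of the KO list did. Of the WT regions not overlapped by KO at the same time, the widest was 37925615-37928315 at 0 h and 37976123-37978065, of 1943 bp, at 1 h. The KO regions with no WT counterpart at the same time were short. The widest was 37968081-37968709, of 629 bp, at 0 h and 37906944-37907444, of 501 bp, at 1 h. The first lay within a WT region of 1 h, 37967960-37968760, and the second overlapped one of 0 h, 37907421-37907921. The second also lay over a Pol II site of the library labelled KO at 0 h.

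H3K4me1 numbers were close between genotypes, 10 in KO and 12 in WT at 0 h (log2 -0.26, -1.63 to 1.07) and 17 and 13 at 1 h (0.39, -0.74 to 1.55). Covered lengths were 15.2 kb in KO and 25.2 kb in WT at 0 h, and 36.4 and 27.6 kb at 1 h. The flanks had 66 and 92 regions at 0 h and 118 and 101 at 1 h, so they took the same direction at each time. Places were largely shared: 9 of 10 KO members at 0 h lay on WT regions (list 53.1 percent) and 8 of 12 WT members on KO regions (list 47.1 percent). At 1 h, 11 of 17 KO members lay on WT regions (64.7%, list 49.6 percent) and 11 of 13 WT members on KO regions (84.6%, list 71.9 percent). The widest H3K4me1 region found in KO and not in WT of the same time was 37971179-37972419, of 1241 bp, at 1 h. The widest found in WT and not in KO of the same time was 37331164-37332042, of 879 bp, at 0 h. A KO region of 1 h, 37331366-37332670, overlapped the latter. The KO library at 1 h was also the deepest of the 4, with 34859557 tags against 22970480 to 23973912 in the others, and the part of depth was not tested.

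H4K20me1 at 0 h differed more in width than in number. The KO list had 18 members and the WT list 12, a log2 ratio of 0.58 (-0.55 to 1.77), beside 0.49 in the flanks and 0.51 over the whole lists. The covered length was 41.85 kb in KO and 12.6 kb in WT, 3.32-fold, where it was 1.80-fold in the flanks. Of the KO members, 9 of 18 were wider than 1 kb and 4 wider than 4 kb, against 2 and 1 of the 12 in WT.

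The added width lay in 2 places. In the third island H4K20me1 covered 20.2 kb in KO and 8.75 kb in WT, and in the high-coordinate end 19.8 kb and 3.35 kb. The widest KO regions, chosen after their values were seen, were 37965695-37975035, of 9341 bp, and 37975690-37982464, of 6775 bp, next to each other. Over the same ground the WT list had 5 separate regions between 501 and 1043 bp wide. The 3 widest WT regions were covered by KO over 78.1% of 37304178-37310264, 6087 bp wide, and over 100% of 37969318-37970360 and of 37966309-37966979. Of the WT members 10 of 12 (83.3%, 51.6 to 97.9) overlapped a KO region, near the 77.4 percent of the list, and of the KO members 7 of 18 (38.9%, 17.3 to 64.2), near 36.5 percent. The widest KO region without a WT counterpart was 37321530-37324262, of 2733 bp. The KO library had 19.6% of its tags in regions and the WT library 10.5%, from 21256742 and 18494273 tags.

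At 1 h H4K20me1 had no member in KO, 13 in the first WT library and 1 in the second. The KO library had 14644165 tags (2.98% in regions), the first WT library 27586111 (10.2%) and the second 16459703 (0.881%). The part of depth was not tested. Against the WT mean of 7, the exact interval puts the log2 ratio at -0.73 or below. Setting the KO list at the floor of 3 regions gives -1.22, and only -0.22 with regions within 5 kb merged. The floor is a set value, so -0.22 is no limit for counting error. The flanks had 23 regions in KO, 65 in the first WT library and 10 in the second, a mean of 37.5. Against the second WT library alone, which shares its title prefix with the KO library, no ratio could be given, since 0 and 1 are both under the floor. Of the 13 members of the first WT library none was overlapped by the second (list 5.2 percent) or by KO (list 15.3 percent). The widest member of the first WT library was 37304094-37308980, of 4887 bp, and the only member of the second was 37303060-37303560, at the low-coordinate edge of the same ground.

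**Figure D4:**
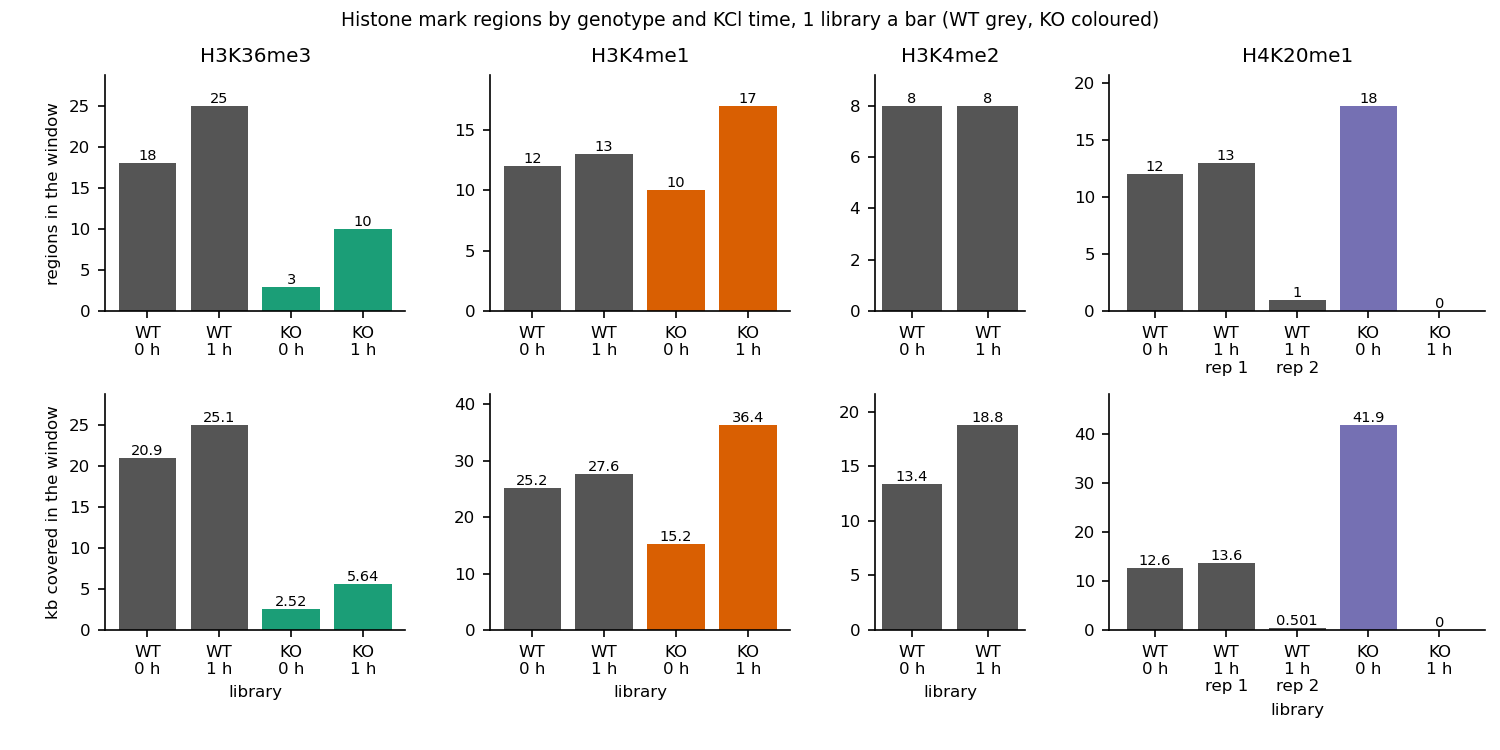
Number of regions in the window (upper row) and kb covered in the window (lower row) for the 4 histone marks, with 1 bar for each library (WT grey, KO coloured) and no error bars, as each bar is 1 library. H4K20me1 covers 41.9 kb in KO at 0 h and 12.6 kb in WT, H3K36me3 has the fewest regions in the 2 KO libraries, and H3K4me2 covers more at 1 h with the same number of regions.

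By KCl time, H3K4me2 in LSD1n WT, the only genotype with this mark, kept its number of 8 while its covered length grew. The covered length went from 13.4 kb at 0 h to 18.8 kb at 1 h, a log2 ratio of 0.49, while it went from 61.8 to 53.0 kb in the flanks, -0.22, and from 0.906% to 0.683% of the genome over the whole lists. The median width of the members went from 1320 to 2155 bp and that of the lists from 1173 to 837 bp. At 37302502-37305086 the region of 2585 bp at 0 h lay wholly within one of 5365 bp at 1 h, 37302424-37307788. That region of 1 h also took in a second region of 0 h, 37306159-37306659. The region 37973235-37975733, of 2499 bp, lay within one of 3607 bp, whereas the widest at 0 h, 37965026-37968596 of 3571 bp, was 93.9% covered by one of 3353 bp. Elsewhere, 37983343-37984933 went from 1591 to 1847 bp and 38001895-38002943 from 1049 to 2463 bp. By contrast, 37377183-37378069 went from 887 to 641 bp, and next to 37337513-37338213, of 701 bp, the region of 1 h was 501 bp wide. The 1 h region 37978704-37979726, of 1023 bp, overlapped none of 0 h. At 1 h 6 of 8 members overlapped a region of 0 h (75%, list 79.6 percent), and 7 of the 8 at 0 h a region of 1 h (87.5%, list 69.3 percent). The library at 1 h was the shallower, with 6990017 tags against 9418008.

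H3K36me3 in WT went from 18 to 25 members (log2 0.47, -0.46 to 1.43), less than the flanks at 0.75 and the list at 0.60. Sharing between the times was above that of the lists, with 12 of 18 members of 0 h on a region of 1 h (66.7%, 41 to 86.7, list 37.6 percent) and 12 of 25 the other way (48%, 27.8 to 68.7, list 24.3 percent). In KO the number went from 3 to 10 (log2 1.74, -0.22 to 4.24) while the flanks went from 9 to 8 and the list from 3685 to 3166. The interval of this ratio holds no change, and 5 of the 10 lay in the run where KO at 0 h had none. Of these 10 members 1 overlapped a region of 0 h (10%, list 18.4 percent), and 1 of the 3 at 0 h a region of 1 h (list 15.4 percent).

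H3K4me1 in WT went from 12 to 13 members (log2 0.12, -1.13 to 1.38), with 10 of 12 on a region of 1 h (83.3%, list 62.8 percent) and 10 of 13 the other way (76.9%, list 50.6 percent). In KO it went from 10 to 17 (0.77, -0.44 to 2.06), near the flanks at 0.84 and the list at 0.92. All 10 KO members of 0 h overlapped a region of 1 h (list 77.9 percent), and 9 of the 17 at 1 h a region of 0 h (52.9%, list 38.5 percent). H4K20me1 in WT went from 12 to 13 in the first library of 1 h (log2 0.12) and to 1 in the second (-3.58), so no direction can be given; the mean of 7 gives -0.78 (-2.0 to 0.47). In KO it went from 18 to none, a log2 ratio of -2.14 or below by the exact interval. The flanks went from 73 to 23 and the list from 36291 to 9022. With regions within 5 kb merged, the floor of 3 regions for 1 h gave -1.42. That is a set value and no limit for counting error. H4K20me1 places shared between the times were fewer than over the lists, by no more than the counting intervals allow: 4 of the 13 members of the first WT library at 1 h lay on a region of 0 h (30.8%, 9.09 to 61.4, list 49.2 percent) and 4 of the 12 at 0 h on one of that library (33.3%, 9.92 to 65.1, list 59.1 percent). None of the 12 lay on a region of the second WT library (list 5.73 percent), and none of the 18 KO members of 0 h on a KO region of 1 h (list 11.1 percent). For this mark each 1 h library has another title prefix than the 0 h libraries, and the 2 cannot be told apart.

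Pol II sites stood at 12 places, and more of them were called after KCl. The library labelled WT went from 3 to 8 sites (log2 1.42, -0.64 to 3.96) and that labelled KO from 5 to 9 (0.85, -0.88 to 2.77), while the flanks went from 37 to 42 and from 40 to 41. The intervals hold equal numbers in both cases, and the 1 h libraries had 1.48 and 1.34 times as many tags, the part of which was not tested. The sites of 1 h overlapped those of 0 h less often than in the lists, in 3 of 8 cases under the WT label (37.5%, 8.52 to 75.5, list 65.9 percent) and 2 of 9 under the KO label (22.2%, 2.81 to 60, list 65.1 percent). The interval holds the list's share under the WT label and lies below it under the KO label. From the other side, 3 of 3 sites labelled WT at 0 h (list 72 percent) and 2 of 5 labelled KO (list 74.1 percent) overlapped a site of 1 h. At 1 h the labels shared sites about as often as in the lists: 6 of the 8 sites labelled WT at 1 h overlapped one labelled KO (75%, list 76.2 percent) and 6 of the 9 the other way (66.7%, list 67.3 percent). At 0 h the same counts were 2 of 3 (list 74 percent) and 2 of 5 (list 68.1 percent).

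The places with Pol II in all 4 lists were 37376852-37377670, in the compact place before the empty stretch, and 37803660-37803933, in the fifth. The first had H3K4me2 at both times and H3K4me1 in KO at 1 h within 1 kb, and the second H3K4me1 and H4K20me1 but no H3K4me2. Both libraries of 1 h, and neither of 0 h, had Pol II at 37338026-37338236 in the third island and at 37974837-37975200 in the high-coordinate end, each within 1 kb of H3K4me2. Of the 6 places found in more than 1 list, 5 had H3K4me2 within 1 kb, against 1 of the 6 found in 1 list. The share over all Pol II sites is given neither for this distance nor for the overlap that follows. No enrichment at H3K4me2 is read from these counts. By overlap of at least 1 bp, 2 of 3 window sites labelled WT at 0 h met H3K4me2, against 27 of 37 in the flanks. At 1 h the counts were 5 of 8 and 25 of 42. The 2 single-list places inside the H3K36me3 run, 37907082-37907282 and 37927327-37927527, had H3K36me3 as the only mark within 1 kb. Some sites were in 1 genotype's list alone at a given time. In the order of each deposited list, the first at 0 h were 37965737-37965937 (labelled KO) and 37303337-37303537 (labelled WT). At 1 h they were 37376852-37377052 (KO) and 38001555-38001755 (WT). The site labelled KO at 0 h has one labelled WT at 1 h next to it. That labelled WT at 0 h was overlapped by one labelled KO at 1 h, 37303281-37303481.

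The LSD1 antibody, which does not distinguish the isoforms by its label, had sites at 8 places and none in all 4 lists. The places with 3 lists were 37376712-37378025 and 37803193-37804288, which hold the 2 constant Pol II places, and 37965562-37966014, which lies at the Pol II place 37965737-37966232. In wild-type neurons 1 of the 6 sites at 0 h overlapped a site at 1 h (16.7%, list 21 percent) and 1 of the 5 at 1 h one at 0 h (20%, list 25.7 percent). In numbers the window went from 6 to 5 (log2 -0.26, -2.31 to 1.71). Between LSD1n WT with 2 sites and LSD1n KO with 4 (log2 1.00, -1.80 to 4.47) none overlapped, where 43.4 percent of the KO list and 44.4 percent of the WT list did. Sites this few cannot be set firmly against those shares. The exact upper limits for an overlap of 0 are 60.2% for the 4 KO sites and 84.2% for the 2 WT sites. Sequencing depth was 31532169 tags for LSD1n KO, whose time is unknown, against 17993780 for LSD1n WT at 0 h. How far depth or time bears on the 4 and 2 sites was not tested. The first-listed sites of each were 37804088-37804288 in KO and 37965562-37965762 in WT.

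The single Flag-tagged site in the window was one of Flag-LSD1n at 1 h, 37803741-37803941. It was number 2912 of 4438 in its list, and no Flag-LSD1n site of 0 h (list 9.1 percent) or Flag-LSD1c site of 1 h (list 34.2 percent) overlapped it. It lay at the place where Pol II was called in all 4 lists and where the LSD1 antibody gave sites in wild-type neurons at both times and in LSD1n KO. No LSD1 site of the LSD1n WT library was called there. With 1 and 0 sites, the Flag lists give no ratio between isoforms or times in the window.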

How the data were processed

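Of 41 samples, 27 have a list of called regions, in 26 groups. GRO-seq (10 samples) and RNA-seq (4 samples) were left out and are not analysed here. Bowtie, HOMER and build mm9 are named, with no version, in the submitters' processing notes. Histone regions were made by the authors, per the file headers, by joining peaks of 500 bp, and Pol II and LSD1 sites at 200 bp with 4-fold more tags than the surrounding 10 kb, at a false discovery rate of 0.001, counting 1 tag per position. The unit that the authors deposited is other than counts: the positions of each region, with a score of 1 throughout, so no region height was used. Groups follow the sample labels. Positions count from 1.

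Members, the flanks of 1 Mb, covered lengths, overlaps of at least 1 bp, loci and islands were obtained in Python 3.11.15 (numpy 2.4.6, scipy 1.17.1), and figures drawn with matplotlib 3.10.9. There were 24 comparisons of numbers between lists; 20 had at least 5 members and a ratio. Intervals at 95% are exact: conditional Poisson for ratios, Clopper-Pearson for shares. The calculation was tested on simulated lists. No test between groups was run.

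Positions named are the loci with at least 6 of the 8 targets, the 3 widest regions of each histone mark in WT at 0 h, every Flag-tagged site, the widest or first-listed region of each genotype comparison found in 1 list alone, and those said to be chosen after their values were seen; the single-list and shared Pol II and LSD1 places and the island borders were also chosen so. The members and lists were chosen with earlier results of these data known. Alternatives were other rules of membership, covered length, merging within 5 kb, single or shorter flanks, other overlap rules and leaving out a replicate. A check of cell type markers and gene promoters needs an mm9 annotation and was not run.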

Additional observations from a re-analysis of the deposited data

Results flagged for a closer look

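The difference between LSD1n KO and WT in the number of regions in the protocadherin window went one way at 0 h and the other at 1 h for 2 marks. For H3K4me1 it was 10 against 12 at 0 h and 17 against 13 at 1 h, a shift of 6 regions between the times. For H4K20me1 it was 18 against 12 at 0 h and 0 against 13 and 1 at 1 h, a shift of -13 against the WT mean of 7. Neither shift was tested, since each group but 1 is 1 library. For H3K4me1 the flanks took the same directions, with 66 against 92 and 118 against 101 regions. For H4K20me1 they had 73 against 52 at 0 h. At 1 h they had 23 in KO, 65 in the first WT library and 10 in the second, a mean of 37.5. The whole lists had 9022 in KO, 28453 and 2844. So outside the window KO at 1 h lay below the first WT library and above the second, which shares its title prefix.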

How the results depend on the processing

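No paired analysis was possible because the labels give the groups compared no shared replicate numbers. No alternative with a value turned a ratio of the window to the flanks above 1 for the targets other than H3K36me3 (126 of 126 values below). A list with no member could give only a value below 1 or no value, so such lists could not show otherwise. Alternatives with no value are not in this count, among them Flag-LSD1c at 0 h with the right flank alone and with shorter flanks. For H3K36me3, 17 of 23 values were above 1, and merging regions within 5 kb put WT at 1 h below (log2 -0.21). Of 93 alternative log2 ratios between lists, 86 stayed within the counting interval. The others follow.
Values said to be at the floor have a list with no member set at 3 regions and are no limits for counting error. With regions wider than the pooled median, H3K36me3 KO over WT at 1 h was -3.91 and H4K20me1 KO over WT at 0 h 2.46. H4K20me1 WT 1 h over 0 h was then 0.58 and KO 1 h over 0 h -1.87 at the floor. With merging within 5 kb, H4K20me1 KO over WT at 1 h was -0.22 and KO 1 h over 0 h -1.42, both at the floor. Leaving out each WT replicate in turn, H4K20me1 WT 1 h over 0 h ran from -3.58 to 0.12.
Of window over flanks, merging gave H3K4me1 -3.21 in WT at 0 h, -3.30 in WT at 1 h and -3.00 in KO at 1 h. It gave H4K20me1 in KO at 1 h -0.76 at the floor. Covered length gave H4K20me1 in WT at 0 h -2.10. The left flank alone gave H3K36me3 in KO at 1 h 3.43 and H4K20me1 in KO at 1 h -1.11 at the floor. The right flank alone gave H4K20me1 in KO at 0 h -0.040 and Flag-LSD1c at 1 h -0.30 at the floor.
With matches within 1 kb, 90% of H3K36me3 KO members at 1 h met WT, all H3K4me1 KO members at 0 h met WT (100%), all H3K4me1 and H3K4me2 WT members at 0 h met those of 1 h (100%), and 69.2% of the first H4K20me1 WT list at 1 h met 0 h. With at least 50% of the region covered, the share was 0% for H3K36me3 WT in KO at 1 h and for LSD1 between the times in wild type, 5.56% for H4K20me1 KO in WT at 0 h and 23.5% for H3K4me1 KO at 1 h in 0 h. Between targets, 18 more shares fell out of their intervals when 50% had to be covered, and 4 rose out of them within 1 kb. The cause of these moves was not tested. For Pol II, taking the genotype from inside the lists turns 0.74 at 0 h and 0.17 at 1 h into -0.74 and -0.17; this alternative was added after seeing the data. In short lists a count of 0 does not show that regions are absent.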
